A study of Homo sapiens with 2 samples.

Results

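The epidermal differentiation genes and S100 proteins were followed in H322c cells, an established NSCLC (non-small cell lung cancer) line, after treatment with the EGFR kinase inhibitor gefitinib. The group was defined by gene symbol alone. It held every probe set paired with a single gene whose symbol starts with S100, SPRR or LCE, together with those of FLG, FLG2, IVL, LORICRIN, CRNN, TCHH, HRNR, RPTN, PGLYRP3 and PGLYRP4. This gave 51 probe sets of 41 genes, out of 41097 probe sets of 19775 genes with a single annotated gene. HRNR had no such probe set and was not analysed here. Cells were plated 24 hrs before the addition of drug or vehicle and were then cultured for 4 days with 1 µM gefitinib or for 4 days with 0.1% DMSO. Total RNA of each culture was hybridized to 1 Affymetrix U133 Plus 2.0 array. There was 1 array per condition, so there is no replicate error, no test was possible, and each difference describes these 2 arrays.

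Many of these genes lie side by side on chromosome 1, in the epidermal differentiation complex. Its members build and accompany the cornified envelope, the cross-linked protein shell that replaces the plasma membrane of terminally differentiated keratinocytes. Involucrin (IVL), loricrin, the small proline-rich proteins (SPRR) and the late cornified envelope proteins (LCE) are its building blocks, and transglutaminases join them. Filaggrin and its relatives carry an S100 domain fused to long repeats. The S100 proteins proper are small calcium-binding proteins with a pair of EF-hands that mostly act as dimers. In the airway, SPRR1B is known as a marker of squamous change of the epithelium.

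The deposited values were MAS5 signal intensities on a linear scale, which have no unit and are compared here only between the arrays for the same probe set. Signals under 100 were set to 100 on both arrays. A gene was counted as measured if any of its probe sets reached 100 with gefitinib or with DMSO, and the brightest of these by mean log2 signal stood for it. A difference was counted from 2-fold in either direction. If one of the signals did not reach 100, the fold is given as a bound, written as at least that size. Probe sets that target 1 gene differed in log2 ratio with an SD of 0.54, over 4610 genes that had several probe sets above the floor with both treatments. This SD describes the spread within an array pair and not the spread between cultures.

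The cells carried the markers of an epithelium. All 7 epithelial markers (EPCAM, CDH1, KRT7, KRT8, KRT18, KRT19 and MUC1) were measured and were within 2-fold at their brightest probe sets. The 3 probe sets of MUC1 ran from 0.53 to 1.38 in log2 ratio, and 1 of these markers was counted as higher with the mean over probe sets or the highest signal on either array. Of 7 keratinocyte markers with a probe set, KRT10 alone reached the floor, and KRT1, KRT2, KRT5, KRT14, DSG1 and DSG3 did not. As a measure of RNA integrity, the 3'/5' signal ratio was 1.01 with gefitinib and 0.95 with DMSO for GAPDH, and 1.36 with gefitinib and 1.19 with DMSO for ACTB. On the gefitinib array 60.4% of all probe sets were under the floor, and on the DMSO array 61.6% were.

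Of the 41 genes, 17 were measured and 24 were not. The measured genes were 10 S100 genes, 5 SPRR genes, LCE1B and S100PBP, which shares the S100 prefix but encodes a binding protein of S100P. On the gefitinib array 6 of the 17 were at least 2-fold lower (SPRR1A, SPRR1B, SPRR2B, S100A2, S100A9 and S100A13), which is 35.3%, against a background of 6.20% of the 11223 measured genes of the array. At least 2-fold higher were 3 of the 17 (S100A8, S100P and S100A4), which is 17.6%, against a background of 13.3%. The remaining 8 were within 2-fold or had a bound below it. LCE1B, SPRR2B and SPRR4 were measured through the DMSO array alone and could only be lower. Among the 14 genes that reached the floor with gefitinib and with DMSO, 5 were lower and 3 were higher, against 6.24% lower and 12.2% higher of 10190 genes. The median log2 ratio of gefitinib over DMSO was -0.52 over the 17 genes and -0.41 over the 14, and it was 0.12 over all measured genes. With scaling to bacterial spike-in transcripts, 2 members (S100A8 and S100P) were higher and 7 were lower, S100A16 being added, beside 9.42% higher and 9.25% lower of all measured genes. With scaling to GAPDH the members' calls stayed the same genes, beside 17.9% higher and 4.34% lower. RNA came from whole cultures, so fewer cells that express a gene and less RNA per cell cannot be told apart. All 9 genes past 2-fold in one or the other direction compare with a background of 19.5%, and the 8 such genes among the 14 with 18.5%.

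**Figure D1:**
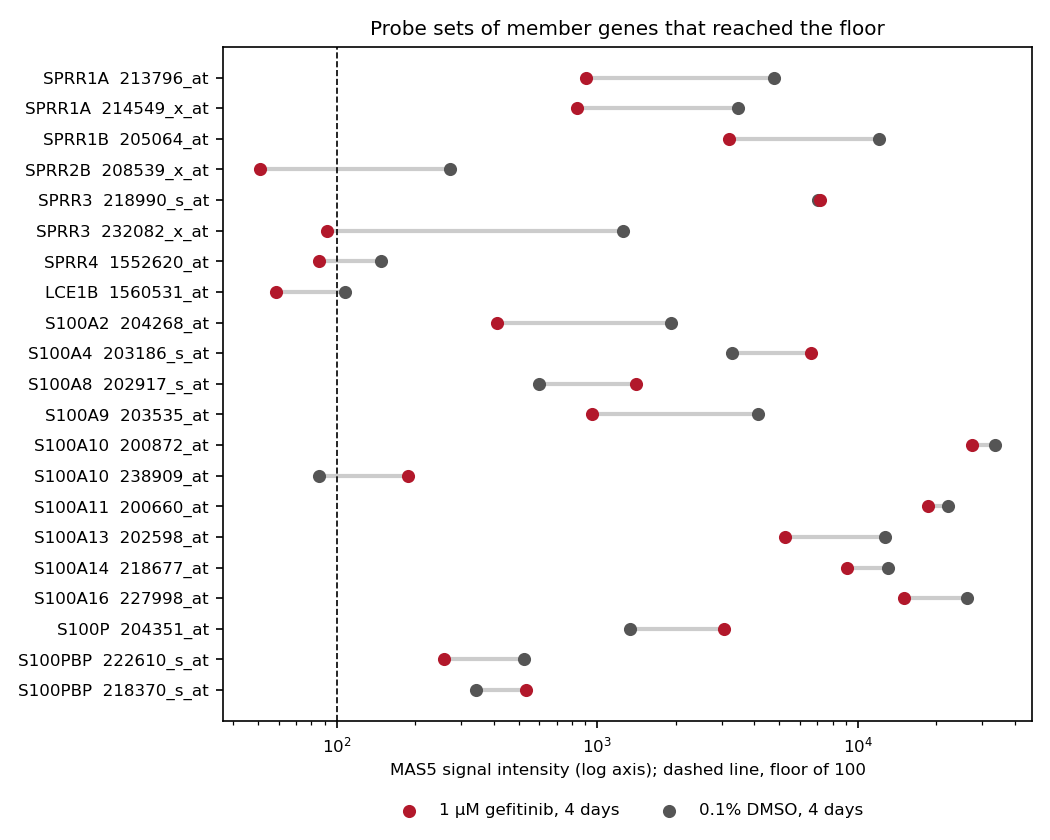
MAS5 signal (horizontal log axis) of the 21 member probe sets that reached the floor, on the gefitinib array (red) and the DMSO array (grey) (1 array each). A dashed vertical line marks 100, the floor. Red lies to the left of grey by the widest margin at SPRR3 232082_x_at, with 91.7 on the gefitinib array and 1251.2 on the DMSO array.

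Of the 7 SPRR genes with a probe set 5 were measured, with 3 lower and 0 higher (median log2 ratio -1.44), beside 6.20% lower and 13.3% higher of all measured genes. SPRR2B and SPRR4 reached the floor with DMSO alone and could only be lower, and of the 3 SPRR genes that reached it on both arrays 2 were lower, beside 6.24%. SPRR1A, also called cornifin-A, is a precursor that transglutaminases cross-link into the envelope. At 213796_at it had a signal of 904.4 with gefitinib and 4751.8 with DMSO, 5.25-fold lower (log2 ratio -2.39), which placed SPRR1A at 47 from the lowest of the 10190 genes that reached the floor with both treatments. Its second probe set, 214549_x_at, had 838.4 with gefitinib and 3481.9 with DMSO, 4.15-fold lower. The 2 probe sets of SPRR1A thus fell on the same side, 0.34 apart on the log2 scale. The second is an _x_at probe set, whose probes also match other transcripts, so it may hold signal of relatives of SPRR1A. SPRR1B, or cornifin-B, is the closest relative of SPRR1A. It had 3193.9 with gefitinib and 12061.4 with DMSO at 205064_at, 3.78-fold lower (log2 ratio -1.92, 97 from the lowest). Both signals of SPRR1B were above the floor, so its fold is a measured value and not a bound.

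SPRR2B, a member of the SPRR2 subfamily, had 50.9 with gefitinib and 271.5 with DMSO at 208539_x_at, at least 2.72-fold lower. With a floor of 200 this bound was -0.44 on the log2 scale and no longer passed 2-fold. SPRR4 had 85.7 with gefitinib and 148.3 with DMSO at 1552620_at, at least 1.48-fold lower, a bound under 2-fold. SPRR2G (38.9 with gefitinib and 94.2 with DMSO) and the pseudogene SPRR2C (2.7 with gefitinib and 12.8 with DMSO) were under the floor on both arrays. The probe set name ending in _x_at marks probes that also match other transcripts, and the SPRR2 genes are near-identical copies, so the value of SPRR2B may hold signal of its relatives. SPRR2A, SPRR2D, SPRR2E and SPRR2F had no single-gene probe set.

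SPRR3, the SPRR protein of the esophageal and other mucosal linings, differed between its 2 probe sets. At 218990_s_at, the brighter one, the signal was 7174.4 with gefitinib and 7042.4 with DMSO, a log2 ratio of 0.03. At 232082_x_at it was 91.7 with gefitinib and 1251.2 with DMSO, at least 12.5-fold lower. The log2 ratios differed by 3.67, which is far above the SD of 0.54 between probe sets of a gene. With the mean over probe sets SPRR3 had a log2 ratio of -1.81 and was counted as lower. The deposited table does not say which transcripts each probe set binds, and the part of probes shared with other SPRR genes in the value of 232082_x_at was not tested.

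The promoters of SPRR1A, SPRR1B and SPRR3 are shown because the first pair was lower at all 3 of its measured probe sets and the third gene was not lower at its brightest, while all carry the same motif. The sequences are those of RefSeq on GRCh38.p14, from 250 bases before to 50 after the annotated start, read 5′ to 3′ on the plus strand at chr1:152983831-152984130, chr1:153030953-153031252 and chr1:153001499-153001798. Capitals mark matches to TGANTCA, the site of AP-1 (FOS and JUN dimers), and to TATAAA, the TATA box.
SPRR1A: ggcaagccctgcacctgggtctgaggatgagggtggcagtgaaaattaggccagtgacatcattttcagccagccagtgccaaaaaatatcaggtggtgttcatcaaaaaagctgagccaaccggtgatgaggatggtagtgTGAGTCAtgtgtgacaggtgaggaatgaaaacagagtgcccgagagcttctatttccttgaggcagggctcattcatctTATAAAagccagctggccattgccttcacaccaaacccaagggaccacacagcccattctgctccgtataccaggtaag
SPRR1B: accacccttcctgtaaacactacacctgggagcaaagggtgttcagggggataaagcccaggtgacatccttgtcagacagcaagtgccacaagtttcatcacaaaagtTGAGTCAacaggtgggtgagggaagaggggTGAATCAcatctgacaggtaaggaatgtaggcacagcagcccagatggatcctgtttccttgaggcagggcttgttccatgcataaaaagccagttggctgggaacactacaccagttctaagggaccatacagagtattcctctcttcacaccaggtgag
SPRR3: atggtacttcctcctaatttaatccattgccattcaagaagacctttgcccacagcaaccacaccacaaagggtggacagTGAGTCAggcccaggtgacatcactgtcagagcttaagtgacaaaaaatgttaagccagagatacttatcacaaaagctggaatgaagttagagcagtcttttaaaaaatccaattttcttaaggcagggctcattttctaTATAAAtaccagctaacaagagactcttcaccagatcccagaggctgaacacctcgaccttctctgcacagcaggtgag
The first base of the AP-1 match lay 108 bases before the start in SPRR1A, 141 and 111 bases before it in SPRR1B and 170 bases before it in SPRR3. A TATAAA began 29 bases before the start in SPRR1A and in SPRR3. In SPRR1B the TATAAA letters were not found in the window.

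Both strands were searched in all promoters of the same length. TGANTCA was found for 16 of the 38 member genes with a promoter sequence (42.1%) and for 9.37% of the 27305 genes in the table. TATAAA was found for 22 of the 38 (57.9%) and for 3819 of the 27305. AGGAAG, an ETS core motif whose matches can share an end base with the others, was found for 27 of the 38 (71.1%) and for 38.1% of all genes. Among the 6 lower genes 3 held TGANTCA (SPRR1A, SPRR1B and S100A2), and among the 3 higher genes 0 did. The share over all 38 members was 42.1%. TATAAA was held by 4 of the 6 lower and 3 of the 3 higher genes, and AGGAAG by 5 of the 6 and 3 of the 3. SPRR3 and S100PBP, within 2-fold at their brightest probe sets, held TGANTCA too. So did CRNN, FLG, FLG2, IVL, LORICRIN, RPTN, TCHH, S100A3, S100A5, S100A12 and SPRR2G, which were under the floor on both arrays. These matches are a description of the letters in this window.

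**Figure D2:**
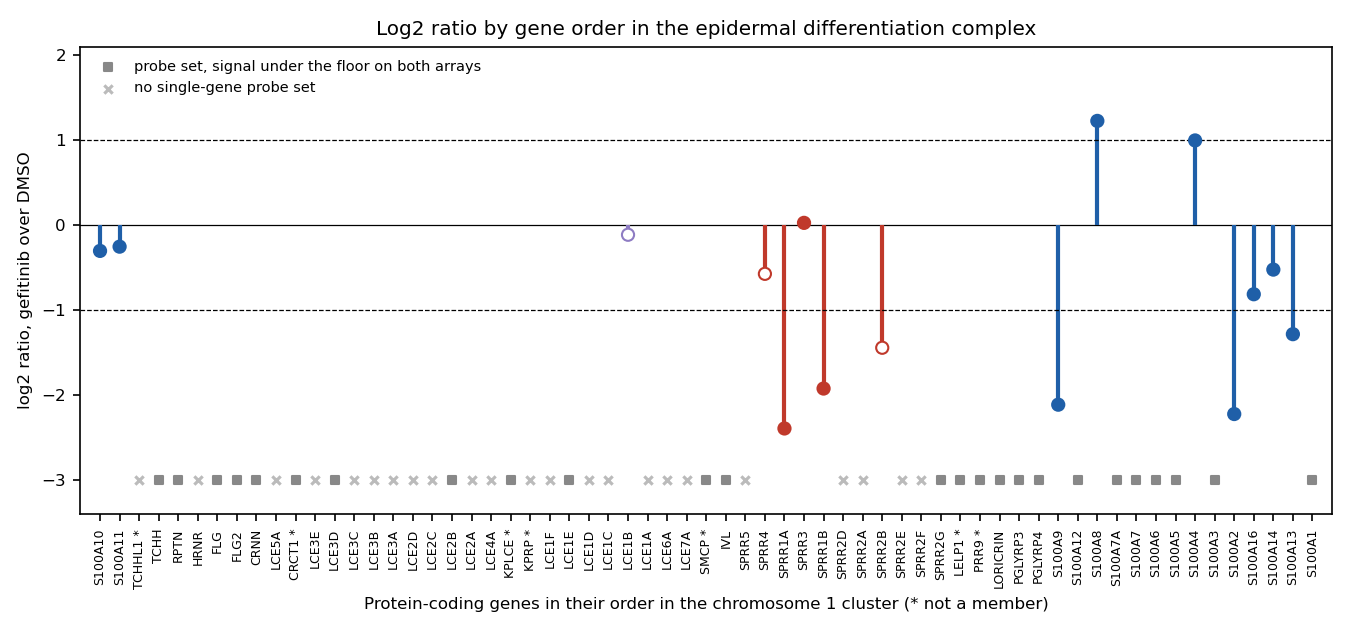
Log2 ratio of gefitinib over DMSO (vertical axis) for the 63 protein-coding genes of the epidermal differentiation complex in their order on chromosome 1 (horizontal axis), 1 array per condition. Bars are measured genes, open points are bounds, squares are genes under the floor on both arrays and crosses are genes with no single-gene probe set; SPRR1A and SPRR1B reach -2.39 and -1.92, and S100A9 and S100A8 stand at -2.11 and 1.23.

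The cluster from S100A10 to S100A1 held 63 protein-coding genes, of which 56 have a member symbol and 35 of these had a probe set. The 15 measured ones lay in separate stretches. S100A10 and S100A11 stand at one end and were both within 2-fold. The stretch from TCHH to IVL, with the filaggrin and LCE genes, had LCE1B as its single measured gene. Many of its LCE genes had no single-gene probe set. The SPRR stretch followed, and the S100 stretch from S100A9 to S100A1 held both lower and higher genes. Of 7 genes in the cluster whose symbols did not meet the rule of the group, 5 had a probe set (CRCT1, KPLCE, SMCP, LELP1 and PRR9) and 0 were measured.

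Of the 20 S100 genes with a probe set 10 were measured, with 3 higher and 3 lower (median log2 ratio -0.41), beside 13.3% higher and 6.20% lower of all measured genes. All 10 reached the floor on both arrays. S100A8 and S100A9 differed in direction. Their proteins pair as calprotectin, an antimicrobial dimer that binds zinc and manganese and that neutrophils hold in large amounts. S100A8 had a signal of 1406.1 with gefitinib and 598.0 with DMSO at 202917_s_at, 2.35-fold higher (log2 ratio 1.23, 785 from the highest). S100A9 had 955.9 with gefitinib and 4139.4 with DMSO at 203535_at, 4.33-fold lower (log2 ratio -2.11, 73 from the lowest). The log2 ratio of S100A8 thus lay 3.35 above that of S100A9, a gap that no common scaling factor of an array can change. Each gene had 1 measured probe set, since 214370_at of S100A8 was at 0.9 with gefitinib and 3.4 with DMSO. S100A12, the third member of this group of genes in neutrophils, was under the floor with 29.2 with gefitinib and 8.6 with DMSO.

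Leukocyte markers were at or near background in both cultures. Of the 8 with a single-gene probe set (PTPRC, CD14, ITGAM, ITGB2, CSF1R, ELANE, MPO and LYZ), 0 reached the floor. Their highest signal was 46.3 with gefitinib and 60.2 with DMSO, and the sum of each gene's highest signal was 187.1 with gefitinib and 225.7 with DMSO.

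The promoters of this pair are shown because the genes lie close together in the cluster, with S100A12 between them, and their ratios went in opposite directions. They are from RefSeq on GRCh38.p14, with S100A9 on the plus strand at chr1:153357604-153357903 and S100A8 on the minus strand at chr1:153391024-153391323. Of 3 annotated starts of S100A8, the one with TATAAA shortly before it is printed, and capitals mark the TATAAA.
S100A9: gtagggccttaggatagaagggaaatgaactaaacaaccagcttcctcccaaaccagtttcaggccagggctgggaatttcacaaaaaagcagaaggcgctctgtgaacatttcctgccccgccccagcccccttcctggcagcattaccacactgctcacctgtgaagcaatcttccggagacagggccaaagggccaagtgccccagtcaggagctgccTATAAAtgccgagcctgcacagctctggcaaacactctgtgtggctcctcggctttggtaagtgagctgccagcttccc
S100A8: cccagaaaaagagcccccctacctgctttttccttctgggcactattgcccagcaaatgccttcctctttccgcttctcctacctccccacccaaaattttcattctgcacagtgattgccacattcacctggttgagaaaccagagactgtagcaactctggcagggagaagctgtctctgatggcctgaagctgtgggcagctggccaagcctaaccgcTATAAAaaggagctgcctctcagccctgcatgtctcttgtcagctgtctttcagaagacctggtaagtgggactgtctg
The TATAAA began 29 bases before the start in both. TGANTCA was found in neither window.

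S100A2, a nuclear S100 protein of basal and squamous epithelial cells, had the lowest ratio among the S100 genes. Its signal at 204268_at was 411.6 with gefitinib and 1915.1 with DMSO, 4.65-fold lower (log2 ratio -2.22, 59 from the lowest). One of its 2 annotated promoters, on the minus strand at chr1:153565795-153566094 of GRCh38.p14, is printed since it holds the AP-1 letters (capitals) that are also in the SPRR1A and SPRR1B windows.
S100A2: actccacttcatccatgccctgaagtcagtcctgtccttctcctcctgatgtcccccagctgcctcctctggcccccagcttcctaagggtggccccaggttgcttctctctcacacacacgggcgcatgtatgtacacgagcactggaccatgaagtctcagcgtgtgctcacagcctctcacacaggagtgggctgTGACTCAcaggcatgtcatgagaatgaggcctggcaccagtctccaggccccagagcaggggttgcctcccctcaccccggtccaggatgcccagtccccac
The match began 52 bases before the start.

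S100A13 takes part in the release of FGF1 and interleukin 1 alpha, which lack a signal peptide. It had 5248.6 with gefitinib and 12770.9 with DMSO at 202598_at, 2.43-fold lower (log2 ratio -1.28, 342 from the lowest). Its other probe set, 213481_at, was under the floor with 42.1 with gefitinib and 74.0 with DMSO. S100A16, S100A14 and S100A13 lie side by side in the cluster. S100A16 had 15001.8 with gefitinib and 26334.7 with DMSO, 1.76-fold lower (log2 ratio -0.81), and with scaling to the spike-ins it was counted as lower. S100A14 had 9093.5 with gefitinib and 13059.9 with DMSO, 1.44-fold lower (log2 ratio -0.52). These 3 neighbours had ratios on the same side, and S100A13 minus S100A14 was -0.76 on the log2 scale.

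S100P, which binds ezrin and is encoded on chromosome 4, was the second S100 gene that was higher. Its signal at 204351_at was 3070.5 with gefitinib and 1335.4 with DMSO, 2.30-fold higher (log2 ratio 1.20, 841 from the highest). S100PBP, its binding partner, had 2 probe sets that went in opposite directions. At 218370_s_at it had 534.9 with gefitinib and 343.9 with DMSO, a log2 ratio of 0.64. At 222610_s_at it had 258.6 with gefitinib and 525.8 with DMSO, a log2 ratio of -1.02. No direction can be given for S100PBP, and its mean over probe sets was -0.19.

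S100A4, a binding partner of non-muscle myosin that is also called fibroblast-specific protein, had 6596.6 with gefitinib and 3293.2 with DMSO at 203186_s_at. It was 2.00-fold higher (log2 ratio 1.00, 1247 from the highest) and so stood just inside the threshold, which 1248 of the 10190 genes passed in this direction. Scaled to the spike-ins its log2 ratio was 0.81 and it was no longer counted. S100A4 and S100A2, which stand close to each other in the cluster, differed by 3.22 on the log2 scale. Of 6 fibroblast markers, COL1A1 was the single measured one, with 950.2 with gefitinib and 420.8 with DMSO at its brightest probe set. Its 3 measured probe sets ran from 0.14 to 1.57 in log2 ratio. COL1A1 was not counted as higher with spike-in scaling, lowess correction, the mean over probe sets or a 3-fold threshold. COL1A2, COL3A1, DCN, LUM and PDGFRB were under the floor. The summed highest signals of the 6 fibroblast markers were 1014.6 with gefitinib and 627.9 with DMSO, and their part in the value of S100A4 was not tested.

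S100A10 and S100A11 had the ratios nearest to 1 among the S100 genes. S100A10, also called p11, forms a tetramer with annexin A2 under the plasma membrane, and S100A11 binds annexin A1. S100A10 had 27465.8 with gefitinib and 33703.2 with DMSO at 200872_at (log2 ratio -0.30), and S100A11 had 18610.9 with gefitinib and 22121.3 with DMSO at 200660_at (log2 ratio -0.25). A dim second probe set of S100A10, 238909_at, was at least 1.88-fold higher, with 188.4 with gefitinib and 85.9 with DMSO.

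**Figure D3:**
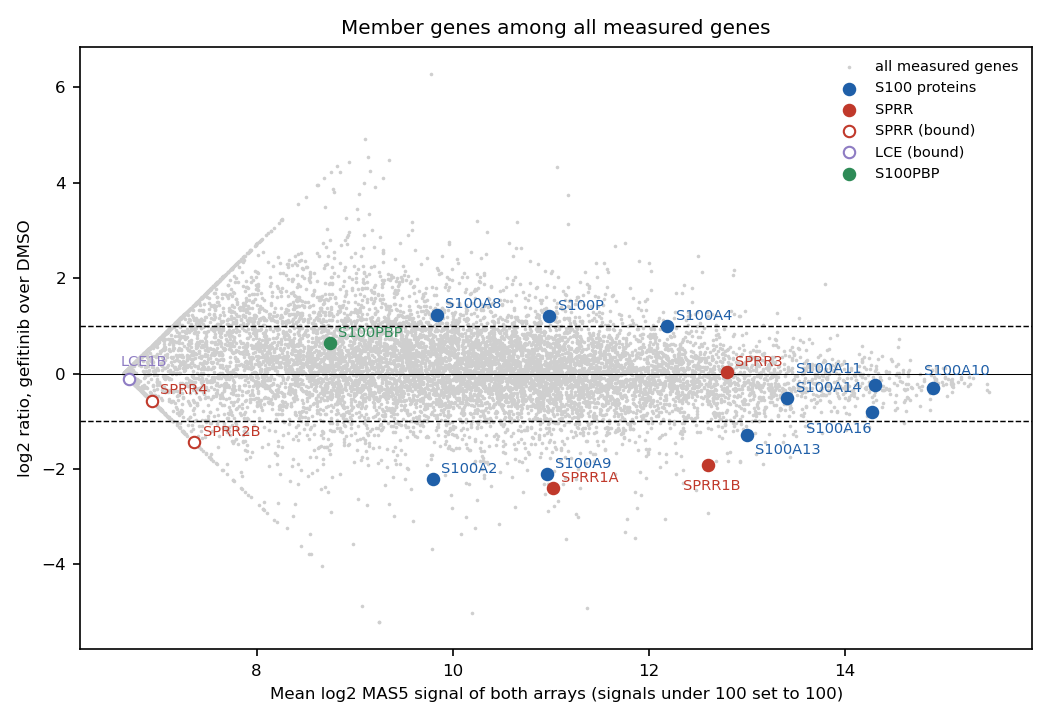
Log2 ratio of gefitinib over DMSO (vertical axis) against the log2 signal averaged over the arrays (horizontal axis, with the floor applied) for 11223 measured genes (grey) and the 17 measured members (coloured by family, open points are bounds), 1 array per condition. Dashed lines mark 2-fold; SPRR1A, S100A2, S100A9 and SPRR1B lie between -2.39 and -1.92, and S100A8, S100P and S100A4 between 1.00 and 1.23.

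Apart from LCE1B, the structural proteins of the late envelope that had a single-gene probe set were under the floor in both cultures. IVL, the scaffold on which the envelope is built, had 57.3 with gefitinib and 64.8 with DMSO. LORICRIN, the main envelope protein of the epidermis, had 2.1 with gefitinib and 2.9 with DMSO. The filaggrin-type genes FLG, FLG2, RPTN, TCHH and CRNN had between 4.7 and 31.3 with gefitinib and between 1.9 and 14.2 with DMSO. LCE1B, a late envelope protein, had 58.5 with gefitinib, under the floor, and 107.8 with DMSO, at least 1.08-fold lower. The other LCE genes with a single-gene probe set, LCE1E, LCE2B and LCE3D, had between 12.6 and 57.7 with gefitinib. With DMSO they had between 4.9 and 66.2. The remaining LCE genes of the cluster had no single-gene probe set, so nothing can be said of them here. PGLYRP3 and PGLYRP4, secreted proteins that bind bacterial peptidoglycan, had 26.6 and 53.7 with gefitinib, against 2.8 and 44.6 with DMSO.

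The S100 genes that were not measured were S100A1, S100A3, S100A5, S100A6, S100A7, S100A7A, S100A12, S100B, S100G and S100Z. Their signals ran from 0.4 to 34.4 with gefitinib and from 0.4 to 25.7 with DMSO. S100A6, or calcyclin, was low at both of its probe sets, with 2.8 and 2.4 with gefitinib, against 10.2 and 10.0 with DMSO. S100A7, or psoriasin, a keratinocyte protein that rises in inflamed skin, had 26.3 with gefitinib and 3.0 with DMSO. S100B, known from glia and melanocytes, was at or below 3.3 at both probe sets on both arrays. No fold is given for these genes, and a difference under the floor was not detectable here.

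Of 25 other genes of the cornified envelope that had a probe set, 11 were measured, 3 of them at least 2-fold higher and 1 lower (median log2 ratio 0.27), beside 13.3% and 6.20% of all genes. CSTA (cystatin A), a protease inhibitor that is itself cross-linked into the envelope, had 815.9 with gefitinib and 158.9 with DMSO, 5.13-fold higher. The desmosomal linker EVPL (envoplakin) was 2.19-fold higher, CNFN (cornifelin) 2.03-fold higher, and the protease KLK5 2.54-fold lower. KLK5 had 109.1 with gefitinib, near the floor, and 276.6 with DMSO. The count of lower genes in this list was 0 with a floor of 200 and at 3-fold. EVPL and CNFN stood just past 2-fold, and the count of higher genes was 1 with quantile normalization, lowess correction or spike-in scaling. The cross-linking enzymes TGM1 (79.9 with gefitinib and 8.0 with DMSO), TGM3 and TGM5 were under the floor.

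Among 20 genes of stratified and squamous mucosa with a probe set, 11 were measured, with 6 higher and 3 lower, beside 13.3% and 6.20% of all genes. KRT4, A2ML1 and SERPINB13 reached the floor with gefitinib alone and could only be higher, and ECM1, KRT16 and SERPINB4 reached it with DMSO alone and could only be lower. Of the 5 that reached it on both arrays, 3 were higher and 2 lower, beside 12.2% and 6.24% of all such genes. The count of higher genes in this list was 4 with spike-in scaling or a floor of 200, and 3 at 3-fold. Its count of lower genes was 5 with a floor of 50. KRT4, a keratin of mucosal linings, had 7730.9 with gefitinib and 78.9 with DMSO, at least 77.3-fold higher, and its partner KRT13 was 15.1-fold higher. ECM1, a secreted matrix protein encoded elsewhere on chromosome 1, was at least 7.15-fold lower, and the protease TMPRSS11E was 6.56-fold lower. TMPRSS11E had 116.3 with gefitinib, near the floor, and 762.8 with DMSO. Of 28 transcription factors of epidermal differentiation with a probe set, 26 were measured, with 7 higher and 4 lower (median log2 ratio 0.04), beside 13.3% and 6.20% of all genes. FOS, FOSB and FOSL1 reached the floor with DMSO alone and could only be lower, and of the 21 genes that reached it on both arrays 7 were higher and 1 lower (median log2 ratio 0.25), beside 12.2% and 6.24%. The AP-1 subunits FOSL1 and FOSB were at least 8.39-fold and at least 5.26-fold lower. Of the other FOS family members, FOS had a log2 ratio of -2.10, a bound, and FOSL2 one of 2.02, with 0.65 as the lowest of its probe sets. Among the JUN genes, which reached the floor on both arrays, JUN had -1.58, with -0.15 as the highest of its probe sets. JUNB had -0.95 and JUND -0.28, both within 2-fold. JDP2, a repressor of AP-1 targets, was 23.3-fold higher, with 2721.9 with gefitinib and 116.8, near the floor, with DMSO. The ETS factor EHF was 6.63-fold higher, with a second EHF probe set at 0.54 on the log2 scale.

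**Figure D4:**
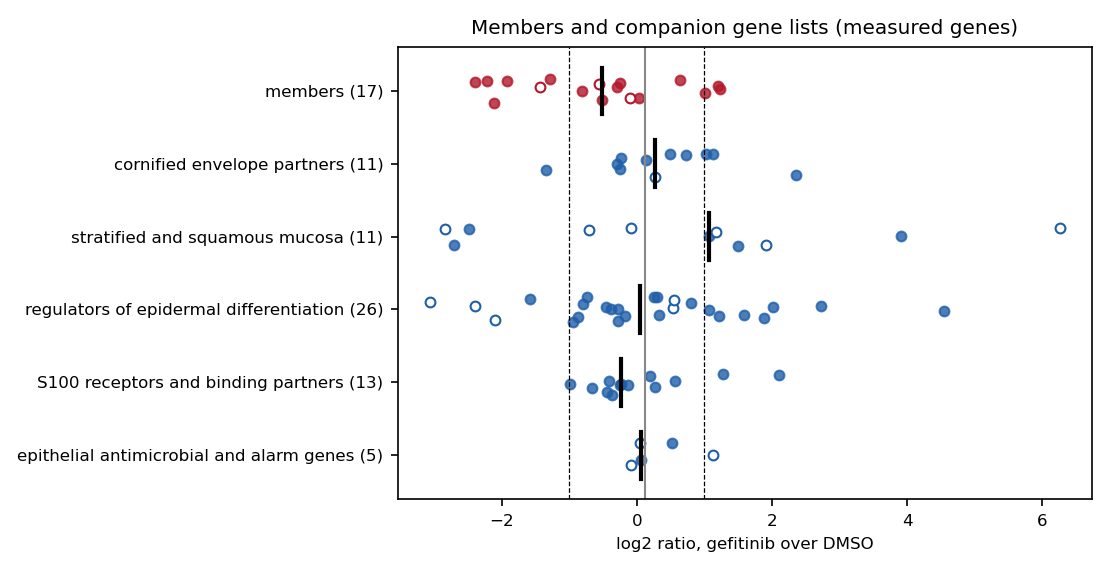
Log2 ratio of gefitinib over DMSO (horizontal axis) for the 17 measured members (red) and the measured genes of 5 other lists (blue), with the number of genes in parentheses, 1 array per condition. Open points are bounds, black bars are medians, the grey line is the median of all measured genes (0.12) and dashed lines mark 2-fold. Among the members 4 filled points (SPRR1A, S100A2, S100A9 and SPRR1B) lie at -1.92 or below; the open points could lie on 1 side only.

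**Figure D5:**
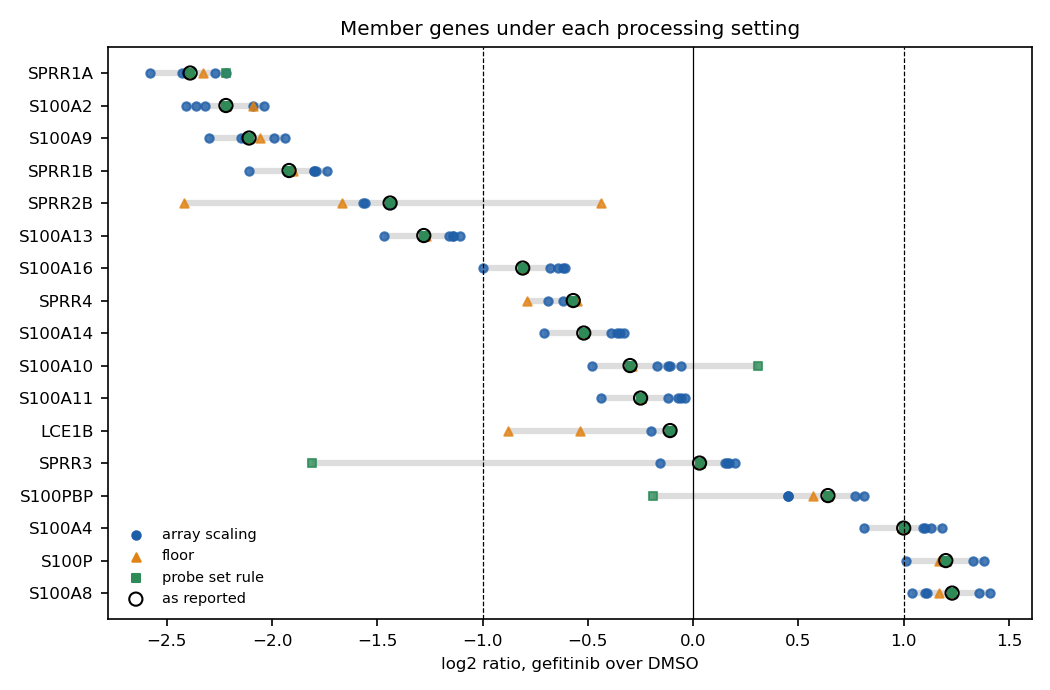
Log2 ratio of gefitinib over DMSO (horizontal axis) of each measured member as reported (open circles) and under other array scalings (blue), floors (orange) and probe set rules (green), with grey bars from the lowest to the highest value. SPRR1A, S100A2, S100A9, SPRR1B, S100A13, S100A8 and S100P were past 2-fold in each setting, whereas SPRR3 ran from -1.81 to 0.20.

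The plot of members under each setting shows where a value rests on a processing choice. Over the array scalings SPRR1A ran from -2.58 to -2.22, S100A2 from -2.41 to -2.04, S100A9 from -2.30 to -1.94 and SPRR1B from -2.11 to -1.74. S100A13 ran from -1.47 to -1.11, S100A8 from 1.04 to 1.41 and S100P from 1.01 to 1.38, each past 2-fold throughout. SPRR3 ran from -0.16 to 0.20, so its brightest probe set has no settled sign.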

How the data were processed

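Total RNA of H322c cells from 1 gefitinib and 1 DMSO culture was hybridized to Affymetrix U133 Plus 2.0 arrays. The authors deposited signal intensities on a linear scale, and the submitters' processing notes name MAS5, whose version was not given in the sources used here. This algorithm subtracts background, corrects for mismatch probes and multiplies each array by 1 factor. The 2% trimmed mean of the deposited values was 500.1 on each array, so this scaling was already applied. Such scaling would hide a change shared by most transcripts. Of 54675 probe sets in the deposited table, 41097 had 1 gene in the platform annotation, and symbols were updated through gene identifiers of GRCh38.p14. From the deposited values, a floor of 100 was applied and log2 ratios (gefitinib over DMSO) were calculated. No test was run, since precision is limited by having 1 array per condition. Samples were assigned from the treatment label. The gefitinib solvent was not given in the sources used here.

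The members, the gene lists and the motifs were chosen with earlier results of these data known. The lists were cornified envelope genes, stratified and squamous mucosa, regulators of epidermal differentiation, S100 receptors and binding partners, epithelial antimicrobial and alarm genes, epithelial, keratinocyte, leukocyte, melanocyte and Schwann cell, and fibroblast markers, and neighbours in the cluster. Every measured member is named with its values. Members under the floor were to be named alone, and their signals were added after the values were seen. Of each list, up to 4 genes are named, by the size of the log2 ratio regardless of sign. Genes under the floor are also named where the text counts them. TGM1, TGM3, TGM5, FOS, FOSL2, JUN, JUNB, JUND, EZR, A2ML1, SERPINB13, KRT16 and SERPINB4 were chosen after their values were seen. Alternatives were quantile normalization, centring on 100 normalization-control probe sets, scaling to GAPDH or spike-ins, lowess correction (span 0.3), floors of 50 and 200, no floor but 50 added before log2, averaging the probe sets of a gene, taking its highest signal on either array, leaving out _x_at probe sets, and a threshold of 1.5-fold or 3-fold. The scripts' folds were tested on simulated data, with changes of 3-fold or more set in genes whose mean signal was well above the floor. The simulated noise was smaller than the SD between probe sets of a gene. All probe sets of a gene were given the same fold. The recovery of changes near 2-fold or near the floor was not tested. Software was matplotlib 3.10.9, statsmodels 0.14.6, scipy 1.17.1, pandas 2.3.3, numpy 2.4.6 and Python 3.11.15.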

Additional observations from a re-analysis of the deposited data

How the results depend on the processing

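The 9 genes past 2-fold kept their sign under each of the alternatives that gave a value. Centring on control probe sets, GAPDH scaling and spike-in scaling removed log2 ratios of -0.13, -0.18 and 0.19, too small to turn such a sign. A gene with 1 measured probe set has the same value, or none, under each probe set rule. If both its signals pass 200, the floors of 50 and 200 leave it unchanged too. Such settings were no test of these genes, and the tally of single members below includes them. At a threshold of 3-fold the number of members higher was 0, and 4 remained lower (SPRR1A, SPRR1B, S100A2 and S100A9). Of all measured genes 4.78% were higher and 2.05% lower at 3-fold. Over the other alternatives the number higher was between 2 and 4 and the number lower between 5 and 7. Of all measured genes, 9.42% to 26.4% were higher and 4.34% to 15.0% lower in these settings. The threshold of 1.5-fold gave 4 higher and 7 lower of 17 members, beside 26.4% and 15.0%. S100A4 dropped out with spike-in scaling and with log2 of the signal plus 50, and SPRR2B with a floor of 200 and without _x_at probe sets, where it has no value. The median log2 ratio of all measured genes ran from -0.07 with spike-in scaling to 0.28 with GAPDH scaling, against 0.12 as deposited. Of the values of single members under an alternative, 178 moved by less than the SD between probe sets and 6 by more: LCE1B (-0.88 with a floor of 50), SPRR2B (-2.42 and -0.44 with a floor of 50 and 200), and S100A10 (0.31), S100PBP (-0.19) and SPRR3 (-1.81) with the mean over probe sets. For the last 3 the probe sets differ in sign. No paired analysis was possible because each condition has 1 array.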

Other observations

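Of 19 receptors and binding partners of S100 proteins with a probe set, 13 were measured, with 2 higher and 0 lower (median log2 ratio -0.23), beside 13.3% higher and 6.20% lower of all measured genes. MYH14, a non-muscle myosin heavy chain, had 2649.2 with gefitinib and 618.0 with DMSO, 4.29-fold higher, with log2 ratios from 2.04 to 2.42 at its 4 measured probe sets. ALCAM, an adhesion molecule that can bind S100B, was 2.41-fold higher at its brightest probe set, with log2 ratios from -0.21 to 2.17. The chaperone partners SUGT1 and CACYBP had log2 ratios of -0.99 and -0.67, and those of SUGT1 ran up to 0.57 at other probe sets. EZR, the S100P partner ezrin, had -0.45 at its brightest probe set and values down to -1.62 at its others. The receptors AGER and TLR4, through which secreted S100A8 and S100A9 can signal, were under the floor, with 61.1 and 8.6 with gefitinib, against 50.9 and 10.0 with DMSO.

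Of 19 epithelial antimicrobial and alarm genes with a probe set, 5 were measured, with 1 higher and 0 lower (median log2 ratio 0.06), beside the same 13.3% and 6.20%. LCN2, a carrier that binds bacterial siderophores, had 217.0 with gefitinib and 50.7 with DMSO, at least 2.17-fold higher. LCN2 reached the floor with gefitinib alone and could only be higher, and the count of higher genes was 0 with spike-in scaling, with a floor of 200 and at 3-fold. SLPI, a protease inhibitor of mucosal secretions, had a log2 ratio of 0.52. Of 5 melanocyte and Schwann cell markers with a probe set, MITF and PMEL were measured, with log2 ratios of 0.65 and 0.42, and SOX10, MLANA and TYR were under the floor.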
